A study of Xenopus laevis with 4 samples.

Results

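Uroplakins and tetraspanins are membrane protein genes, and the probe sets described here are those whose single platform symbol begins with upk or with tspan and a digit. Of 15491 probe sets that are not controls, 16 carried such a symbol, and 14 of these had a mean signal over the 4 arrays of at least 271.5, the 40th percentile of all mean signals. The members stood for 14 gene copies of 10 genes, with 4 probe sets for uroplakins and 10 for tetraspanins. Members were thus selected on their mean signal, so their levels are a description. The closest member above the limit was tspan7.L with a mean signal of 606.6, and the closest probe set below it was tspan18.S with 51.2, followed by tspan8.L with 8.94. A further probe set that carries the symbols of both upk1a copies was not counted. Every member also stayed above the limit on each single array, with a lowest signal of 486.4 for tspan7.L, so none entered through the cortex arrays alone.

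The study compared RNA of vegetal cortices, dissected by hand from full-grown stage VI oocytes of the frog Xenopus laevis, with RNA of intact stage VI oocytes. All oocytes, controls included, had been freed with collagenase, and no strain, age or genetic change is named in the labels. Each group has 2 arrays, 1 from each of 2 females, called females 1 and 2 after the replicate number, and a female gave both the cortices and the whole oocytes of that number. Cortices were frozen in pooled batches, so 1 array is an average over many cortices of 1 female.

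Tetraspanins are small proteins that thread through the membrane several times and gather integrins, immunoglobulin family proteins and proteases into patches of the cell surface. Uroplakins are best known from the plaques of the mammalian bladder surface. Uroplakins Ia and Ib are themselves tetraspanins, while uroplakins II and III cross the membrane once, and in the bladder Ib pairs with IIIa and Ia with II. In Xenopus eggs, uroplakins Ib and III lie in membrane rafts, and uroplakin III is known as a target of the kinase Src at fertilization. The final letter of a symbol marks the homeolog, the copy on the long (.L) or short (.S) subgenome of this allotetraploid frog.

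The samples matched their labels in their marker genes. Array medians lay between 521.0 and 601.2, and across tested probe sets log2 signals correlated at 0.94 for the pair of whole oocyte arrays and at 0.84 for the pair of cortex arrays. All 12 probe sets of oocyte markers passed the signal limit. Of 11 tested probe sets of known vegetal cortex RNAs, 10 were called higher in the cortex. All 11 had a log2 change above 0, with a median of 3.19. Over all tested probe sets, 3.31 percent were called higher. The lists were chosen with earlier results of these data known, so this match is no independent check of the labels. Of 18 probe sets of follicle and stromal markers 7 were tested, and their summed signal was 32389 and 32597 in whole oocytes and 51995 and 55441 in cortices. The brightest of these were fn1.S, fibronectin, with 4 tested probe sets at mean signals from 2599 to 14750 and log2 changes from -0.01 to 0.16, and cyp17a1.L, in which most of the difference between the sums lay. The collagen, fshr.L, acta2.L, cyp19a1.L and vim.S probe sets had mean signals between 20.7 and 110.8. The tested vim.L probe set had a mean signal of 515.0 and a log2 change of 0.05 ± 0.41 (SE). The brighter cyp17a1.L probe set was called higher in the cortex (log2 change 2.13 ± 0.36, SE, limma adjusted p = 0.0168). Which cells the cyp17a1.L signal came from was not tested, so the part of follicle cells in the cortices cannot be read from this sum. Of 5 epithelial marker probe sets 3 were tested, for epcam.L, epcam.S and cldn4.L, and cdh1.S and grhl3.L were dim at 26.3 and 28.7. The epithelial sum was 14097 and 16413 in whole oocytes and 19645 and 27983 in cortices. This sum leaves out the keratin gene krt18.1, which the listed symbol krt18 did not match. Both of its copies were tested and went the other way, with log2 changes of -0.23 for krt18.1.L and -1.22 for krt18.1.S. Of 6 blood marker probe sets 1 was tested, and the sums were 877.3 and 1039 in whole oocytes and 779.8 and 1986 in cortices. The part of such markers in the results below was not tested.

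Among the members, 2 uroplakin copies rose in the vegetal cortex, upk1b.L 4.91-fold and upk3a.L 3.86-fold. None of the 10 tetraspanin members passed in the main fit, which has no block for the female. With that block tspan14.L passed (limma adjusted p = 0.0471). For tspan5.S, tspan14.L, tspan31.L and tspan7.L both cortex arrays lay above both whole oocyte arrays. By limma with Benjamini-Hochberg adjustment over all 9295 tested probe sets, 2 of 14 members were higher at an adjusted p under 0.05, where 3.31 percent of all tested probe sets were called higher. As lower, 0 members and 0 percent of all tested probe sets were called. At an unadjusted p under 0.05 the 14 members gave 4 higher and 0 lower. Over all 9295 tested probe sets there were 745 higher, or 8.02 percent, and 429 lower. The members' median log2 change was 0.39, with 0.66 in female 1 and 0.22 in female 2, and the median of all tested probe sets was -0.20. Since every array is scaled to 1 common mean, more copies of an RNA in the cortex cannot be told apart from fewer copies of the rest.

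**Figure D1:**
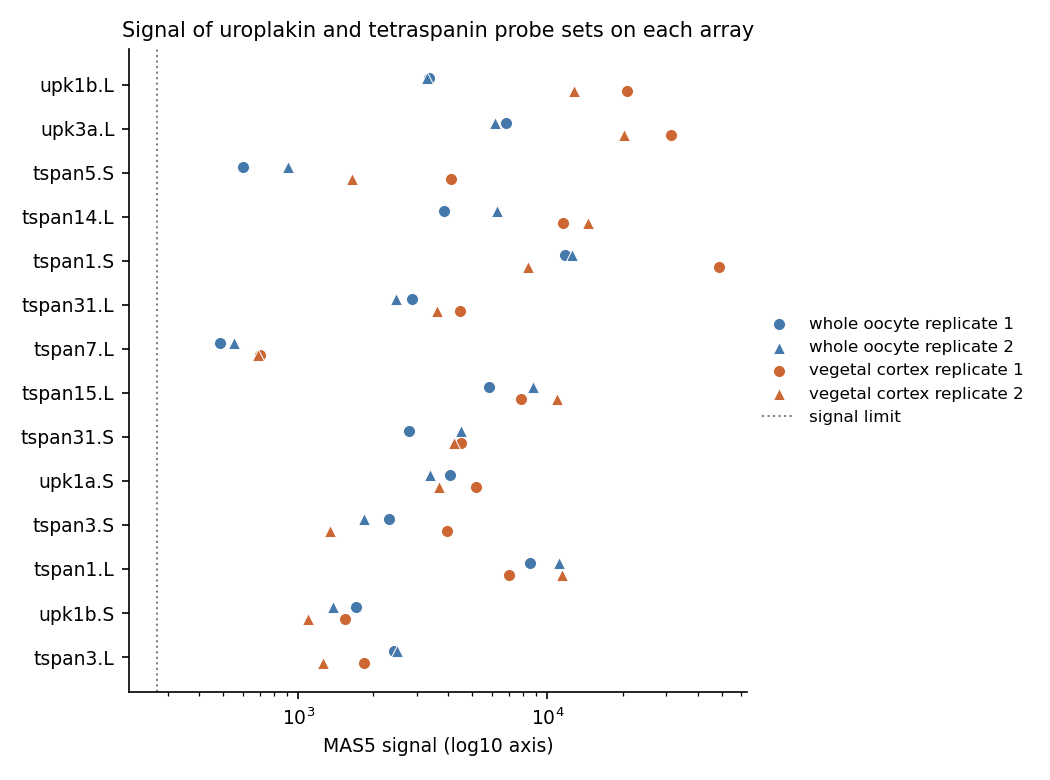
MAS5 signal (log10 axis) of the 14 member probe sets on each of the 4 arrays, circles for replicate 1 and triangles for replicate 2, ordered by log2 change, with the signal limit of 271.5 dotted. Both cortex signals of upk1b.L (12804 and 20805) lie far to the right of both whole oocyte signals, while tspan1.S has 1 cortex array at 48710 and the other at 8352.

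The Ib copy upk1b.L encodes the tetraspanin of the Ib and IIIa pair. Its signal was 3332 and 3285 in the whole oocytes of females 1 and 2, and 20805 and 12804 in their cortices. Both cortex arrays lay well above both whole oocyte arrays, which were nearly equal to each other. The mean went from 3309 ± 33.3 to 16805 ± 5658 (SD, n = 2), a log2 change of 2.30 ± 0.34 (SE; adjusted p = 0.00947 by limma). The increase was 2.64 on the log2 scale in female 1 and 1.96 in female 2. It ranked 223 of 9295 tested probe sets by log2 change.

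The other called member, upk3a.L, encodes uroplakin III, the single-pass partner, which has a cytoplasmic tail. Its signal was 6837 and 6175 in the whole oocytes of females 1 and 2, and 31241 and 20234 in their cortices. The groups were again far apart, and as for upk1b.L the first cortex array was the higher one, by 1.54 times against 1.62 times for upk1b.L. The mean went from 6506 ± 468.3 to 25737 ± 7783 (SD, n = 2), with a log2 change of 1.95 ± 0.31 (SE; adjusted p = 0.0138 by limma). The change was 2.19 in female 1 and 1.71 in female 2. The calls of both genes ended when a whole oocyte array was left out, although the log2 changes hardly moved. Such fits take their error from the cortex arrays alone, and fewer of all tested probe sets were called in them too. Without whole oocyte replicate 1 the log2 changes were 2.31 for upk1b.L and 2.02 for upk3a.L. Without whole oocyte replicate 2 they were 2.29 for upk1b.L and 1.88 for upk3a.L. Against a 2-fold bound (limma treat) neither passed, and 81 of all tested probe sets did.

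The remaining uroplakin members did not pass. upk1a.S encodes uroplakin Ia, the tetraspanin that pairs with uroplakin II in the bladder. It gave signals of 4057 and 3373 in the whole oocytes of females 1 and 2 and of 5183 and 3679 in their cortices, so the groups overlapped. Its log2 change was 0.24 ± 0.35 (SE; limma adjusted p = 0.793), with a 95% interval from -0.56 to 1.04. upk1b.S, the short subgenome copy of upk1b, had signals of 1697 and 1374 in the whole oocytes of females 1 and 2 and of 1534 and 1092 in their cortices. These groups overlapped too, and its log2 change was -0.23 ± 0.38 (limma adjusted p = 0.816).

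The copies of upk1b differed in their change. The log2 change of upk1b.L exceeded that of upk1b.S by 2.53 ± 0.37 (SE; limma adjusted p = 0.0187 over 636 homeolog pairs, 95% interval 1.67 to 3.39), by 2.78 in female 1 and 2.28 in female 2. Over all pairs, 6 passed this test, or 0.943 percent. Leaving out a whole oocyte array ended the call at a like size, with 2.39 without replicate 1 and 2.67 without replicate 2. The error of these fits came from the cortex arrays alone, and fewer of all pairs were called in them too. None of the 14 member probe sets is of a type named as matching several transcripts (_s_at or _x_at). Whether a probe set also binds RNA of the other copy was not tested.

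**Figure D2:**
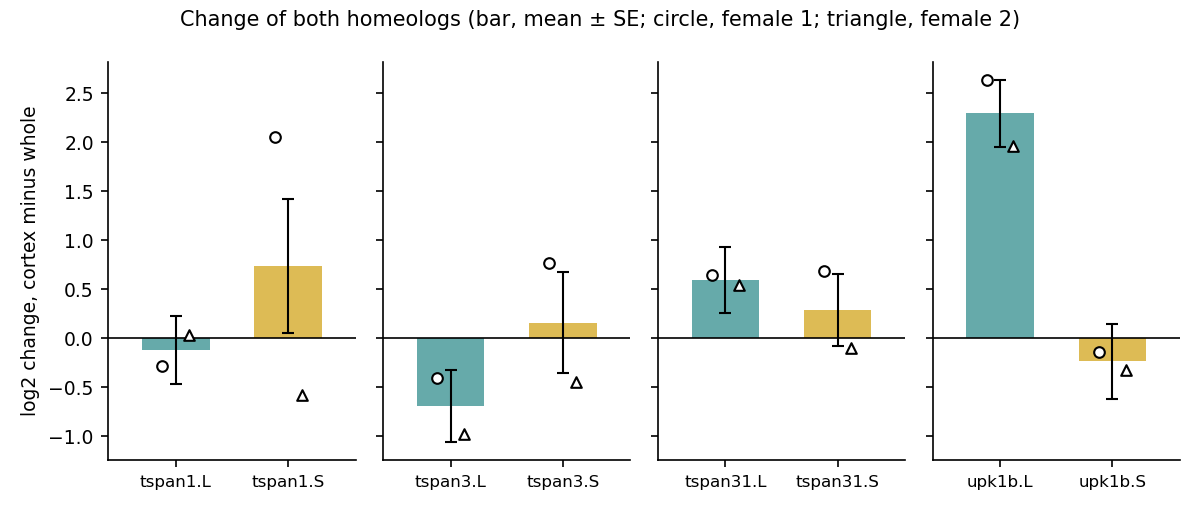
Log2 change from whole oocyte to vegetal cortex (bars, mean ± SE) of both homeologs of the 4 genes with both copies among the members, with female 1 as circles and female 2 as triangles. The bars of upk1b stand at 2.30 and -0.23. The circles and triangles of tspan1.S, tspan1.L, tspan3.S and tspan31.S lie on opposite sides of 0.

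The other 3 genes with both copies tested were tetraspanins, and none of their copies were shown to differ. tspan1, a gene of many mammalian epithelia, had the least even values. tspan1.S had signals of 11729 and 12496 in the whole oocytes of females 1 and 2, and of 48710 and 8352 in their cortices. The first cortex array thus stood far above both whole oocyte arrays and the second below them, a gap of 5.83 times between females that 1.42 percent of all tested probe sets reached in either direction. The log2 change of tspan1.S was 0.74 ± 0.68 (limma adjusted p = 0.663), made of 2.05 in female 1 and -0.58 in female 2. Without vegetal cortex replicate 2 it was 2.01, and without vegetal cortex replicate 1 it was -0.53. Fits with a single cortex array left take their error from the whole oocyte arrays alone, so only the size of the change is given. tspan1.L had signals of 8501 and 11098 in the whole oocytes of females 1 and 2 and of 6989 and 11384 in their cortices. These groups overlapped fully, with a log2 change of -0.12 ± 0.35. The copies' changes differed by -0.86 ± 0.87 (L minus S, limma adjusted p = 0.976, 95% interval -2.87 to 1.15). This difference was -2.48 without vegetal cortex replicate 2 and 0.76 without vegetal cortex replicate 1.

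tspan3, a partner of a claudin in mouse oligodendrocytes, gave the lowest member. tspan3.L had signals of 2432 and 2483 in the whole oocytes of females 1 and 2, and of 1828 and 1258 in their cortices. It was the 1 member with both cortex arrays below both whole oocyte arrays, as were 31.8 percent of all tested probe sets, and its log2 change of -0.69 ± 0.37 did not pass (limma adjusted p = 0.477). tspan3.S had signals of 2310 and 1834 in the whole oocytes of females 1 and 2 and of 3944 and 1343 in their cortices. Its cortex arrays lay on either side of the whole oocyte arrays, with a log2 change of 0.16 ± 0.52. The copies of tspan3 differed by -0.85 ± 0.48 (L minus S; limma adjusted p = 0.787, 95% interval -1.95 to 0.25).

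tspan31 was first described as a gene amplified in human sarcomas. tspan31.L had signals of 2853 and 2463 in the whole oocytes of females 1 and 2, and of 4465 and 3611 in their cortices. Both cortex arrays were the higher ones, but the log2 change of 0.60 ± 0.34 did not pass (limma adjusted p = 0.501). tspan31.S had signals of 2793 and 4516 in the whole oocytes of females 1 and 2 and of 4494 and 4206 in their cortices. Its groups overlapped, with a log2 change of 0.29 ± 0.36, and the copies differed by 0.31 ± 0.42 (L minus S; limma adjusted p = 0.976, 95% interval -0.67 to 1.29).

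**Figure D3:**
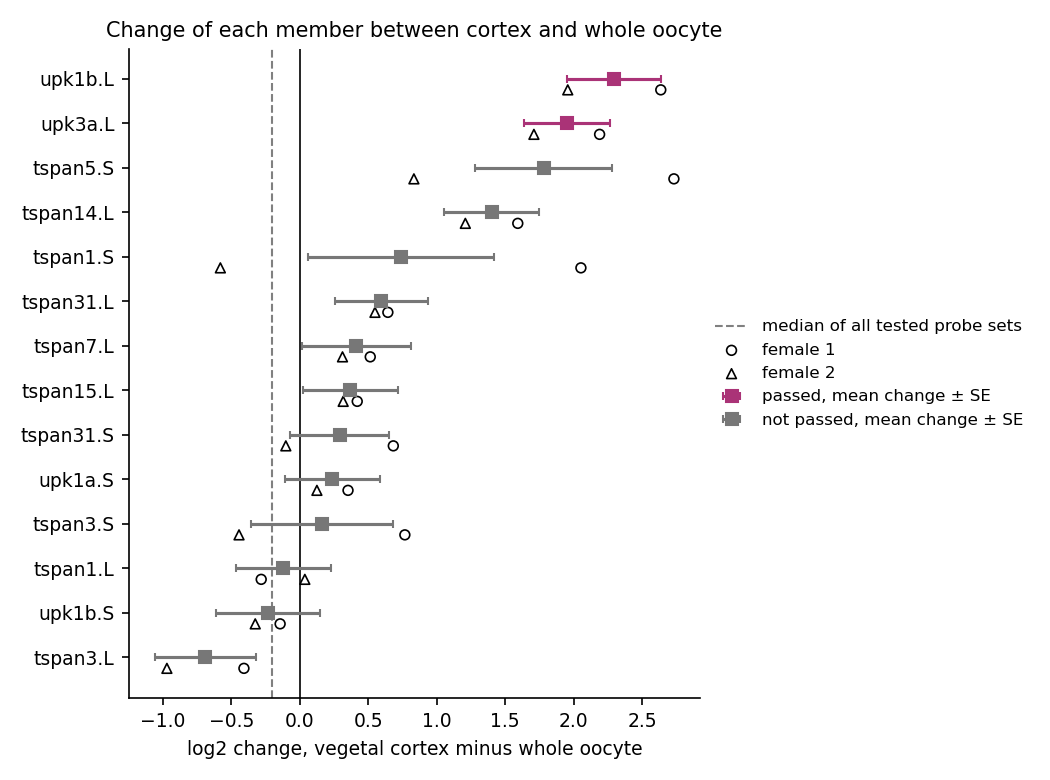
Log2 change from whole oocyte to vegetal cortex of the 14 members (squares, mean ± SE; purple where limma's adjusted p is under 0.05), with each female's own change as a circle (female 1) or triangle (female 2). The dashed line is the median of all tested probe sets, -0.20; upk1b.L and upk3a.L passed, and tspan5.S shows 2.73 in female 1 and 0.83 in female 2.

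Members tspan5.S, tspan14.L and tspan15.L belong to a tetraspanin subgroup that, in mammalian cells, carries the protease ADAM10 to the cell surface. tspan5.S had signals of 602.5 and 912.3 in the whole oocytes of females 1 and 2, and of 4109 and 1640 in their cortices. Both cortex arrays were above both whole oocyte arrays, yet they differed 2.51 times from each other. The log2 change was 1.78 ± 0.50 (limma adjusted p = 0.142), with 2.73 in female 1 and 0.83 in female 2. It was 1.12 and 2.44 without vegetal cortex replicates 1 and 2, and 1.49 and 2.07 without whole oocyte replicates 1 and 2. Each of these fits has a group with a single array, so only the size of the change is given. tspan14.L had signals of 3831 and 6266 in the whole oocytes of females 1 and 2, and of 11582 and 14506 in their cortices. Here the groups were apart and both females moved alike, by 1.59 and 1.21 on the log2 scale. The mean change was 1.40 ± 0.35 (limma adjusted p = 0.0896), which passed with the female as a block (adjusted p = 0.0471). It was 1.56 and 1.24 without vegetal cortex replicates 1 and 2, again with error from the whole oocyte arrays alone. It was 1.05 and 1.75 without whole oocyte replicates 1 and 2, with error from the cortex arrays alone, and did not pass there. The limma adjusted p was between 0.054 and 0.174 in the other settings. tspan15.L ran from 5828 to 8733 in whole oocytes and from 7800 to 10880 in cortices, with overlapping groups and a log2 change of 0.37 ± 0.35 (limma adjusted p = 0.669). In each group female 2 gave the higher signal of tspan14.L and of tspan15.L. The protease gene itself was represented by 2 tested probe sets of adam10.S, the brighter of which had 3662 and 5591 in the whole oocytes of females 1 and 2 and 7381 and 6059 in their cortices. Its log2 change was 0.56 ± 0.35 (limma adjusted p = 0.53), and that of the other was 0.01 ± 0.46.

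The last member, tspan7.L, is the frog counterpart of a gene mutated in human X-linked intellectual disability. It ran from 486.4 to 550.0 in whole oocytes and from 687.2 to 702.8 in cortices, so that the groups were apart by a small step, a log2 change of 0.41 ± 0.40 (limma adjusted p = 0.676). Across the 14 members, both cortex arrays were above both whole oocyte arrays for 6, beside 14.7 percent of all tested probe sets, and the groups overlapped for 7. The log2 change was above 0 for 11 members, beside 34.3 percent of all tested probe sets. The females disagreed in sign for 4 members, tspan1.S, tspan1.L, tspan3.S and tspan31.S, beside 32.3 percent of all tested probe sets. Cortex replicate 1 was above cortex replicate 2 for 11 members, as it was for 51.4 percent of all tested probe sets.

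Tetraspanins that carry other names had 6 tested probe sets, of which 1 was called higher, cd82.L, and 0 lower. Over all tested probe sets, 3.31 percent were called higher. cd82.L, the frog copy of a human metastasis suppressor gene, had signals of 205.1 and 136.8 in the whole oocytes of females 1 and 2, and of 1086 and 952.5 in their cortices. Its whole oocyte signals were under the signal limit, so it entered the test through its cortex signals alone, and its call there (5.54-fold, log2 change 2.47 ± 0.45, limma adjusted p = 0.0216) supports no count of the list. Tested among all probe sets with no signal limit, it had an adjusted p = 0.0476. Without either whole oocyte array it no longer passed. cd82.S had signals of 4078 and 4021 in the whole oocytes of females 1 and 2 and of 8912 and 8374 in their cortices. These groups stood apart with little spread in either, yet the log2 change of 1.09 ± 0.31 did not pass (limma adjusted p = 0.141), and the difference between the cd82 copies, 1.38 ± 0.43, did not either (adjusted p = 0.294). Both copies of cd63, a tetraspanin of late endosomes, were near 0 at 0.11 ± 0.27 for cd63.L and -0.37 ± 0.30 for cd63.S. cd81.S, whose mouse counterpart acts in sperm and egg fusion, had a log2 change of -0.12 ± 0.39. The remaining tested probe set of the list, cd9.S, was at 0.25 ± 0.40 (limma adjusted p = 0.811). The list's median log2 change was 0.18. At an unadjusted limma p under 0.05, cd82.S was higher, as was cd82.L, and no other probe set of the list passed. Over all tested probe sets, 8.02 percent were higher at that limit.

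Integrins and immunoglobulin partners had 9 tested probe sets, with 0 called and a median log2 change of 0.03. The brighter probe set of itgb1.L, the integrin chain that many tetraspanins bind, was at 0.34 ± 0.35 and itgb1.S at 0.38 ± 0.38. epcam.S, an adhesion protein gene, was at 0.79 ± 0.32 (limma adjusted p = 0.375) and epcam.L at -0.30 ± 0.48. ADAM and other metalloprotease partners had 4 tested probe sets, with 0 called and a median of 0.08. Besides adam10.S, notch1.S, a receptor that ADAM10 cleaves, was at -0.20 ± 0.43 and timp3.L, a protease inhibitor gene, at 0.15 ± 0.39. At an unadjusted p under 0.05, epcam.S was the 1 probe set of both lists to be counted, as higher, beside 8.02 percent of all tested probe sets. By limma adjusted p, 3.31 percent of all tested probe sets were called higher and 0 percent lower.

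Genes of sperm and egg signalling had 14 tested probe sets, of which 0 were called higher and 0 lower by limma. Over all tested probe sets, 3.31 percent were called higher and 0 percent lower. At an unadjusted limma p under 0.05 the list also had 0, where 8.02 percent of all 9295 tested probe sets were higher and 429 were lower. The list's median log2 change was -0.30, beside -0.20 for all tested probe sets. The cathepsin B genes ctsb.S and ctsb.L were at 0.03 ± 0.28 and 0.00 ± 0.34, the Src family kinase gene yes1.L at -0.04 ± 0.33, and the calcium channel gene itpr1.S at -0.72 ± 0.52. The kinase gene src, named here for its role with uroplakin III after its values were seen, was at -0.40 ± 0.54 for src.L and -0.26 ± 0.43 for src.S. src.L had 2592 in vegetal cortex replicate 1 and 800.8 in replicate 2, on either side of its whole oocyte signals of 2053 and 1782.

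The listed raft and claudin genes had 9 tested probe sets with a median log2 change of 0.13. By limma 0 of them were called, where 3.31 percent of all tested probe sets were called higher. At an unadjusted limma p under 0.05, 1 was higher, cldn4.L, beside 8.02 percent of all tested probe sets. cldn4.L, a tight junction gene, had signals of 2875 and 2812 in the whole oocytes of females 1 and 2 and of 7670 and 7680 in their cortices. The arrays of each group were nearly equal, and the log2 change of 1.43 ± 0.31 did not pass in the main fit (limma adjusted p = 0.0525). It passed with the female as a block (limma adjusted p = 0.0459) and with the filter at the 60th percentile (0.0338). With other offsets, no filter on dim probe sets, quantile normalization or no trend it did not pass (0.0502 to 0.0956), nor without either whole oocyte array. The log2 change was also 1.43 without either vegetal cortex array, in fits whose error came from the whole oocyte arrays alone. Its change was 1.41 in female 1 and 1.44 in female 2. The brightest probe set of cldn7.L, another claudin gene, was at 0.03 ± 0.43. Its other tested probe sets were at 0.55 ± 0.28 and 0.13 ± 0.32, and neither passed. The list does not hold the claudin genes cldn6.1 and cldn6.2, whose copies were tested too. By the brightest probe set of each copy, the log2 change was 0.64 for cldn6.1.L and 0.15 for cldn6.1.S. For cldn6.2.L it was -0.45 and for cldn6.2.S 0.01. The raft scaffold gene flot1.L was at 0.13 ± 0.47, and the brighter probe set of flot2.L, another such gene, at -0.14 ± 0.36.

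Other multi-pass membrane protein genes had 6 tested probe sets. Of these 1 was called higher and 0 lower, where 3.31 percent of all tested probe sets were called higher. Their median log2 change was 0.58, a value that no probe set lay near. The 3 above 0, cmtm7.S, perp.S and gpm6b.L, were at 1.40 to 1.78, and the others at -0.70 to -0.23. Those 3 were higher at an unadjusted limma p under 0.05, beside 8.02 percent of all tested probe sets. perp.S, a gene of desmosomal adhesion in mammals, had signals of 4066 and 6763 in the whole oocytes of females 1 and 2, and of 16728 and 18135 in their cortices. It rose 3.31-fold (log2 change 1.73 ± 0.34, limma adjusted p = 0.0308), and no longer passed without either whole oocyte array, with dim probe sets included in the test, or with no trend in the fit. cmtm7.S, of a family related to chemokines, was at 1.78 ± 0.43 (adjusted p = 0.0812, and 0.0355 with the female as a block). marveld3.L of tight junctions and mal2.S of membrane traffic were at -0.70 ± 0.35 and -0.23 ± 0.42.

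**Figure D4:**
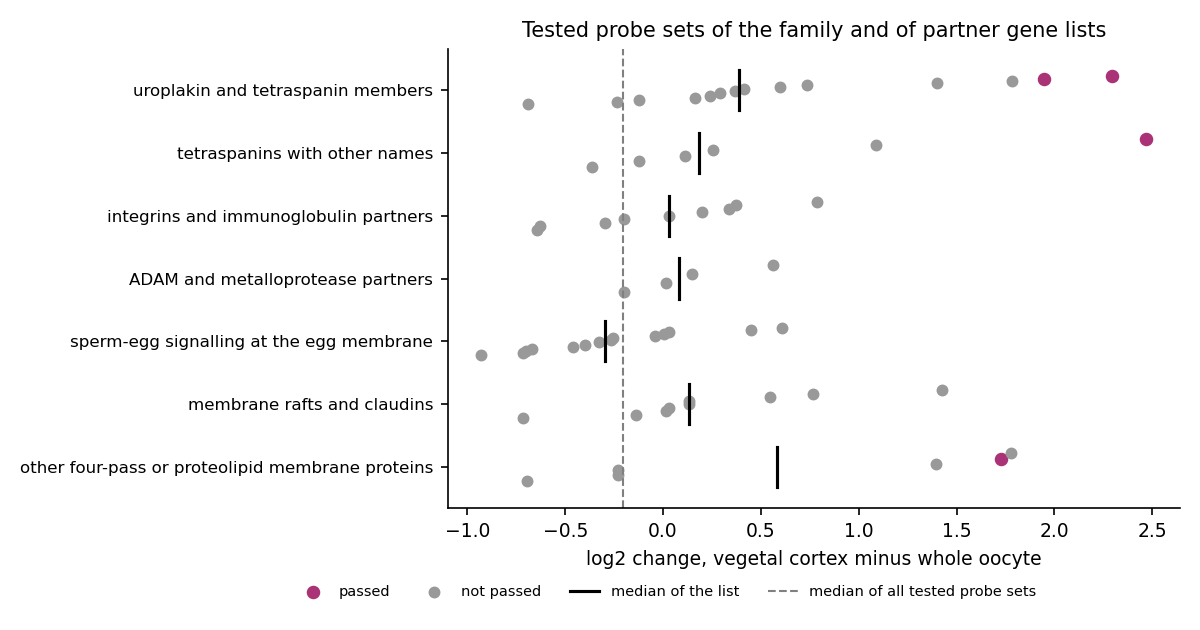
Log2 change from whole oocyte to vegetal cortex of each tested probe set (points, purple where limma's adjusted p is under 0.05) among the members and in 6 lists of related or partner genes, with each list's median as a bar and the median of all tested probe sets (-0.20) dashed. Passing points are upk1b.L and upk3a.L among the members, cd82.L among tetraspanins with other names (tested only through its high cortex signals), and perp.S among other membrane protein genes.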

How the data were processed

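RNA of 2 whole oocyte and 2 vegetal cortex samples was measured on 1-colour Affymetrix arrays after 2 rounds of cDNA amplification, per the labels. The authors deposited MAS5 signals, which are linear intensity values per probe set, per the submitters' processing notes. Trimmed means (2% at each end) were between 1500.1 and 1500.2, so this scaling was kept. The number of arrays limits the precision. Groups and replicate numbers came from sample titles; for vegetal cortex replicate 2 another label repeats the numbers of replicate 1, and its title was used.

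Symbols came from the platform annotation (single for 9304 probe sets, several for 195, none for 5992), updated by gene identifier from Xenopus_laevis_v10.1. All 14 members were found there. To each signal 19.1 (10th percentile) was added before log2, which understates changes of dim probe sets. Probe sets at or above the 40th percentile of mean signal were tested with limma 3.58.1 in R 4.3.3 (lmFit, eBayes with intensity trend, two-sided, no block, 6.22 prior and 2 residual degrees of freedom). The homeolog test fitted the per-array log2 difference of the brightest tested probe set of each copy. Fits were tested on simulated data with a common spread for all probe sets and no female effect. That does not measure how well they do on these arrays.

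The females pair the samples by number, per the labels, and deviations of same-numbered arrays from their group means correlated at 0.35 across probe sets. Alternatives were the female as a block, other offsets, other filters on dim probe sets, quantile normalization, no trend, a 2-fold bound, and each array left out.

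Members and lists were chosen with earlier results of these data known. The text gives array signals for every uroplakin, every called member, the 3 largest changes not called, the 3 brightest members and both copies of genes tested in both, and from each partner list the called genes and up to 4 of the brightest. Named outside this rule were src, for its role with uroplakin III, and gpm6b.L, for its unadjusted p. So were cd9.S, which completes its list, and the cldn6.1 and cldn6.2 copies, which the raft and claudin list does not hold. Protein and promoter sequences were not used here.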

Additional observations from a re-analysis of the deposited data

How the results depend on the processing

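The 2 calls among the members, upk1b.L and upk3a.L, held with other offsets, filters on dim probe sets, quantile normalization, no intensity trend and the replicate block, with log2 changes between 2.19 and 2.30 and between 1.67 and 1.95; with the replicate block the adjusted p-values were 0.0146 and 0.0157. The difference between the upk1b copies held in the same settings, with limma adjusted p-values between 0.00786 and 0.0305. No member is of a type that matches several transcripts, so leaving those types out could not change the 2 calls. Against a 2-fold bound 0 members and 81 of all tested probe sets were called higher, and quantile normalization called 1 of all tested probe sets lower. With each array left out in turn, 0 to 5 members were called higher and 0 lower, and 125 to 697 of all tested probe sets were called higher and 0 to 673 lower; fits with a single cortex array left took their error from the whole oocyte arrays alone. Over these fits the log2 change of upk1b.L was 1.95 to 2.65, that of upk3a.L 1.64 to 2.26, the upk1b difference between copies 2.39 to 2.67, and the median of the members 0.32 to 0.62. The sign changed for tspan1.S (-0.53 to 2.01), tspan1.L (-0.47 to 0.23), tspan3.S (-0.61 to 0.93), tspan31.S (-0.055 to 0.63), upk1a.S (-0.0078 to 0.48) and upk1b.S (-0.48 to 0.0068), and for the copy differences of tspan1 (-2.48 to 0.76) and tspan31 (-0.14 to 0.76). Of all homeolog pairs, 11 differed with no filter on dim probe sets, 10 with the replicate block and 10 with the mean over the probe sets of a copy, against 6, and 0 to 72 did with an array left out (0 to 2 among the members). Among tetraspanins with other names 0 were called with the filter at the 60th percentile, which leaves cd82.L untested, and 0 to 1 with an array left out. Raft and claudin genes gave 1 call with that filter and 1 with the replicate block, and 0 to 3 with an array left out. Other membrane protein genes gave 2 calls with that filter and 2 with the replicate block, 0 with no filter and 0 with no trend, and 0 to 2 with an array left out. Sperm and egg signalling genes gave 0 to 2 calls with an array left out. The replicate block changed no other member's call than that of tspan14.L. The cause of these shifts was not tested.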
